A study of Mus musculus with 17 samples.

Results

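Genes that encode heat shock chaperones of the cytosol and the endoplasmic reticulum (ER) were followed in sorted mouse haematopoietic stem cells (HSCs). The 10 genes, Hspa1a, Hspa1b, Hspa8, Hspa5, Dnajb1, Dnajb9, Hsp90aa1, Hsp90ab1, Hsph1 and Canx, were taken by symbol from the 54838 genes counted in each library. Bulk RNA sequencing covered 17 libraries in 4 groups, all from C57BL/6 Jrj mice. Old Mito-Q libraries (n = 5) came from mice over 18 months old injected daily, 5 times in all, with Mito-Q at 2 mg/kg. Mito-Q is an antioxidant built on ubiquinone that collects in mitochondria. Old control libraries (n = 3) came from mice over 18 months old. Young CCCP libraries (n = 5) came from mice of 8 to 12 weeks that had 1 injection of 0.3 mg/kg CCCP, a protonophore that uncouples mitochondria. Young control libraries (n = 4) came from mice of 8 to 12 weeks. Cells were sorted into trizol as lineage-negative, cKit+, Sca1+, CD48- and CD150+ after bone crushing and c-kit enrichment. The labels say neither whether controls received vehicle, nor what time passed between the last injection and the sort, nor whether each library is 1 mouse, so p-values measure the spread between libraries, which may in part be technical.

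Chaperones bind unfolded stretches of other proteins and release them in cycles of ATP use. Hsp70 proteins (Hspa8, the constitutive form, Hspa1a and Hspa1b, the stress-induced forms, and Hspa5, or BiP, the form of the ER lumen) take their substrates from J-domain partners such as Dnajb1 in the cytosol and Dnajb9 in the ER. Hsph1 helps the cytosolic forms exchange nucleotide. Hsp90aa1 and Hsp90ab1 encode the inducible and the constitutive cytosolic Hsp90, which finish the folding of kinases and receptors, and Canx encodes calnexin, a lectin chaperone of the ER membrane. The heat shock factor HSF1 switches on the cytosolic set, and the unfolded protein response, through ATF6, XBP1 and ATF4, switches on the ER set. HSCs make protein slowly, and the unfolded protein response is known to influence their survival under stress.

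Depth was of the same order in all libraries, and 3 of them stood apart from the rest. Young control 3 had the fewest reads in genes (5649611) and young CCCP 1 the most (8120443). Median Spearman correlations with the other libraries over 24523 genes were 0.682 for young CCCP 3, 0.799 for old control 1 and 0.803 for young control 3, and between 0.828 and 0.863 for the other 14. Reads not counted to a gene (in no gene, ambiguous or not uniquely aligned) made up between 37.7% and 76.2% of a library. The share was highest in young CCCP 3 and next in old control 1 (68.8%). The sort markers were present, with Kit at a mean of 784 CPM (reads scaled to library size) in old Mito-Q, 553 in old control, 1298 in young CCCP and 1127 in young control. Ly6a (Sca1) averaged 397, 596, 176 and 250 CPM in the same order, and Slamf1 (CD150) 161, 96.7, 69.4 and 51.9 CPM. Kit was thus lower in old than in young control libraries, and Ly6a and Slamf1 were higher. Cd48, which the sort excludes, averaged between 0.238 and 7.47 CPM per group. The lineage gene Ly6g averaged between 1.97 CPM in young control and 19.8 CPM in young CCCP.

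Promoters carry the letters that the heat shock factor and the unfolded protein response are known to read, so those of Dnajb1, Dnajb9, Hspa5 and Canx, whose old Mito-Q and old control libraries did not overlap, are shown, with Hsph1 as an example of the heat shock pattern. The sequences are RefSeq promoters on GRCm38.p6, from 250 bases before to 50 bases after the start site, 5′ to 3′ on the strand of the gene, and 7 of the 10 members had at least 1 (Hspa8, Hsp90aa1 and Hsp90ab1 had no match). Dnajb1 and Hsph1 each had 2, and the one whose start is nearer the GENCODE start is used. For Hspa5 (chr2:34771840-34772139, plus strand) and Canx (chr11:50325624-50325923, minus strand) capitals mark CCAAT followed 9 bases later by CCACG, the ER stress element, and in Canx a second CCACG inside the 9 bases. For Dnajb1 (chr8:83607925-83608224, plus strand) and Dnajb9 (chr12:44210019-44210318, minus strand) they mark CCACG on either strand. For a stretch of 100 bases around the Hsph1 start (chr5:149636287-149636386, minus strand) they mark TTCNNGAA, a run of 3 alternating GAA and TTC units each 2 bases apart, and CCACG on the other strand.
Hspa5: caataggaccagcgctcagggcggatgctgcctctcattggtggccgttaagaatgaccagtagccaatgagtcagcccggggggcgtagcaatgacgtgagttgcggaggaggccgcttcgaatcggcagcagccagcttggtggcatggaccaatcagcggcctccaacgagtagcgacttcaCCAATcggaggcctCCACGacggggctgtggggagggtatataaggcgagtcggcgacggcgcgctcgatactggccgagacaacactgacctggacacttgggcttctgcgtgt
Canx: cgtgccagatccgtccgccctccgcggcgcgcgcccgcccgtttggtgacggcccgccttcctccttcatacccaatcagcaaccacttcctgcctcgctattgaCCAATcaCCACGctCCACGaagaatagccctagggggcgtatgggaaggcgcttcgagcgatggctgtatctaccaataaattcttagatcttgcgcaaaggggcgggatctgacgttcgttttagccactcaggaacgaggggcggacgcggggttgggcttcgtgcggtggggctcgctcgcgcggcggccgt
Dnajb1: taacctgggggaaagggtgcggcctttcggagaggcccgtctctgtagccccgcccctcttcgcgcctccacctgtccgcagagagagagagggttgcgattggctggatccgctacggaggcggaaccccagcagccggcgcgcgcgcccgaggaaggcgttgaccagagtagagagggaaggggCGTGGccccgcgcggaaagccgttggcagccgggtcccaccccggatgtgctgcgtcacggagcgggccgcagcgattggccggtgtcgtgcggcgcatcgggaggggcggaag
Dnajb9: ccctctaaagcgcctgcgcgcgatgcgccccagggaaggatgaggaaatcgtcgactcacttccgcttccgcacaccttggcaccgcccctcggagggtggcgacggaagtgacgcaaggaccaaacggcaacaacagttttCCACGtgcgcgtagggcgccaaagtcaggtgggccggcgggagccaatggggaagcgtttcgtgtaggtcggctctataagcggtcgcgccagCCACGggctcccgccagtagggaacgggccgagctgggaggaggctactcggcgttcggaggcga
Hsph1: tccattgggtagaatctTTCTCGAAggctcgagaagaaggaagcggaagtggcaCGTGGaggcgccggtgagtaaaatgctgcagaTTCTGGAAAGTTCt
The spaced pair of CCAAT and CCACG began 65 bases before the start in Hspa5 and 145 bases before it in Canx. Both strands were searched, and 0.119% of 32851 mouse promoters held that pair. CCACG alone began 64 bases before the Dnajb1 start and 108 and 15 bases before the Dnajb9 start, and 32.8% of promoters held it. The second Dnajb1 promoter (chr8:83608298-83608597) held neither CCACG nor CCAAT. The RefSeq start lies 120 bases downstream of the GENCODE start in Hspa5 and 258 bases downstream of it in Dnajb9, so these matches of both genes fall after the GENCODE start. TTCNNGAA began 33 bases before and 36 bases after the Hsph1 start, the second as part of the 3 units, which also hold GAANNTTC. The Hsph1 RefSeq start likewise lies downstream of the GENCODE start, and its matches all fall after the GENCODE start. The 3 heat shock patterns occurred in 8.52% (TTCNNGAA), 0.603% (3 units) and 7.86% (GAANNTTC) of promoters. None of them was found in the promoters of Dnajb1, Dnajb9, Hspa5 or Canx. GAANNTTC also began 104 bases before the start in both Hspa1a and Hspa1b, whose promoters differ at 4 of 300 positions. A match is a description of these letters and shows no binding.

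Per kilobase of exon, Hsp90ab1 was the most abundant member, at 683 ± 193 RPKM (CPM per kilobase of exon; SD over 17 libraries). Hspa8 followed at 307 ± 79.2 RPKM, Hspa5 at 244 ± 153, Hsp90aa1 at 204 ± 111, Dnajb1 at 149 ± 141, Canx at 109 ± 18.7, Dnajb9 at 21.4 ± 14.9 and Hsph1 at 10.5 ± 3.98 RPKM. The stress-induced Hsp70 genes were near the detection floor, at 0.600 RPKM for Hspa1b and 0.494 RPKM for Hspa1a. From Hspa8 to Canx, neighbours in this order differed by less than the larger SD of the pair, while Hsp90ab1 stood above Hspa8, and Canx above Dnajb9, by more than that. The spread of Dnajb1, Dnajb9 and Hspa5 was close to their mean or large beside it, and for these 3 genes the groups differed as described next.

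**Figure D1:**
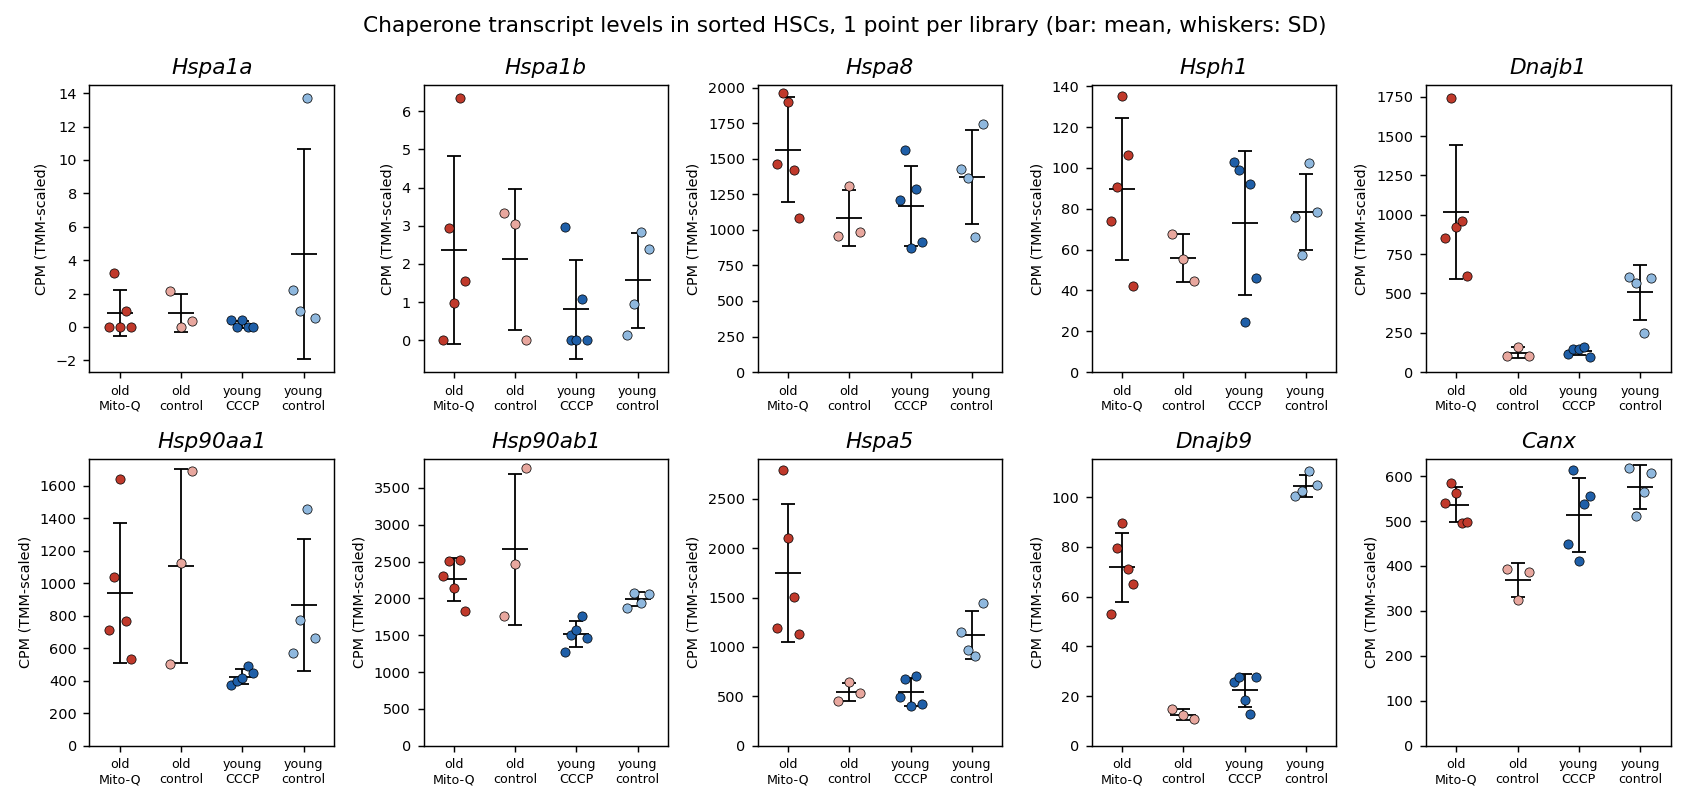
Level of each of the 10 chaperone genes (CPM, linear axes that differ between panels) in every library of the 4 groups, with each group's mean and SD. Dnajb1, Dnajb9 and Hspa5 are high in old Mito-Q and young control libraries and low in old control and young CCCP libraries, and Hspa1a and Hspa1b reach at most 13.7 CPM; SD bars there reach below 0.

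Of the 10 members, 3 rose in old Mito-Q relative to old control HSCs, namely Dnajb1, Dnajb9 and Hspa5. Dnajb1 and Dnajb9 fell in young CCCP relative to young control HSCs, and the same pair fell in old control relative to young control HSCs. No member was called between old Mito-Q and young control HSCs by edgeR, where 0.143% of all genes were called in either direction, or by DESeq2, and 2 had an unadjusted p under 0.05 in edgeR. DESeq2 called 181 of 24040 genes there, and 1935 of 24523 had an unadjusted p under 0.05 in edgeR. Called means a Benjamini-Hochberg adjusted p under 0.05 in edgeR's quasi-likelihood test over 24523 genes. The share of all tested genes called higher was 0.526% in old Mito-Q, and the shares called lower were 0.652% under CCCP and 1.17% in old control. The comparisons share groups (young controls served in 3 of them and old controls in 2), so their directions are not independent of each other. In bulk samples, fewer cells of a type and less RNA per cell cannot be told apart.

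Dnajb1 (ENSMUSG00000005483, chr8:83608193-83612653, plus strand, on GRCm38 as all gene positions here) encodes the J-domain protein that delivers substrates to cytosolic Hsp70 and that HSF1 induces. In old Mito-Q libraries it stood at 853, 1742, 919, 957 and 612 CPM, against 101, 161 and 103 CPM in old control libraries. Every old Mito-Q library was above every old control library, and the lowest of them was still more than 3 times the highest old control. The means were 1016 ± 427 CPM in old Mito-Q and 122 ± 34.3 CPM in old control (SD, n = 5 and 3), an 8.36-fold difference (log2 fold change 3.06, SE 0.38, edgeR adjusted p = 2.12e-05).
Young CCCP libraries had 114, 144, 144, 161 and 95.3 CPM of Dnajb1, against 607, 567, 249 and 600 CPM in young control libraries. All CCCP libraries were below all controls, although young control 3 lay far below the other controls. Dnajb1 fell 3.84-fold under CCCP (log2 fold change -1.94, SE 0.31, edgeR adjusted p = 0.000469), and the log2 fold change was -2.19 without young control 3.
Between the ages, Dnajb1 was 4.16-fold lower in old control than in young control libraries (log2 fold change -2.06, SE 0.37, edgeR adjusted p = 0.00238), with no overlap. Its levels thus ran from old Mito-Q over young control to young CCCP (132 ± 26.3 CPM) and old control, and the last 2 groups overlapped. The step from old Mito-Q to young control had no overlap either, but it was not called (log2 fold change 1.01, SE 0.31, edgeR adjusted p = 0.464).

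Hspa5 (ENSMUSG00000026864, chr2:34771970-34777547, plus strand) encodes BiP, the Hsp70 of the ER and the classic target of the unfolded protein response. It had 1197, 2787, 2102, 1510 and 1129 CPM in old Mito-Q libraries, against 455, 646 and 533 CPM in old control libraries. The groups did not overlap, and old Mito-Q 2, which was also the highest for Dnajb1, was the highest of all 17. Hspa5 averaged 1745 ± 698 CPM in old Mito-Q and 545 ± 95.9 CPM in old control, a 3.20-fold rise (log2 fold change 1.68, SE 0.33, edgeR adjusted p = 0.00735). That call was lost without old control 1 (1.51, edgeR adjusted p = 0.0582) and without old control 3 (1.69, edgeR adjusted p = 0.0843), with the sizes little changed.
Young CCCP libraries had 493, 673, 406, 709 and 425 CPM of Hspa5, against 1150, 967, 907 and 1447 CPM in young controls. Again no library overlapped, and the mean was 541 ± 141 CPM under CCCP and 1118 ± 242 CPM in young control. The difference did not pass the test over all genes (log2 fold change -1.05, SE 0.28, edgeR adjusted p = 0.1), nor did that between old control and young control libraries (-1.04, SE 0.33, edgeR adjusted p = 0.12). Both were called by DESeq2, which called more genes than edgeR in every comparison. The DESeq2 adjusted p was 0.0134 for CCCP and 0.0287 for old control. By group mean old Mito-Q stood highest and young control next, as for Dnajb1, and old control and young CCCP overlapped almost wholly.

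Dnajb9 (ENSMUSG00000014905, chr12:44205559-44210326, minus strand) encodes ERdj4, the J-domain partner of BiP in the ER and a target of XBP1. Old Mito-Q libraries had 53.2, 79.4, 89.7, 71.3 and 65.2 CPM, against 14.9, 12.2 and 10.6 CPM in old control libraries. The groups were well apart, with means of 71.8 ± 13.9 CPM in old Mito-Q and 12.6 ± 2.15 CPM in old control. The rise was 5.70-fold (log2 fold change 2.51, SE 0.37, edgeR adjusted p = 0.00022).
CCCP libraries had 25.6, 27.7, 18.3, 12.6 and 27.7 CPM of Dnajb9, against 100, 103, 111 and 105 CPM in young controls. The young controls lay close together (104.6 ± 4.38 CPM), and young control 3, low for Dnajb1, was the highest of them for Dnajb9. Dnajb9 fell 4.67-fold under CCCP (log2 fold change -2.22, SE 0.31, edgeR adjusted p = 6.41e-05). It was 8.31-fold lower in old control than in young control libraries (log2 fold change -3.05, SE 0.39, edgeR adjusted p = 2.9e-05). Unlike Dnajb1 and Hspa5, Dnajb9 had its highest levels in young control, where all 4 libraries were above all old Mito-Q libraries, a difference that was not called (-0.54, SE 0.30, edgeR adjusted p = 0.708).

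**Figure D2:**
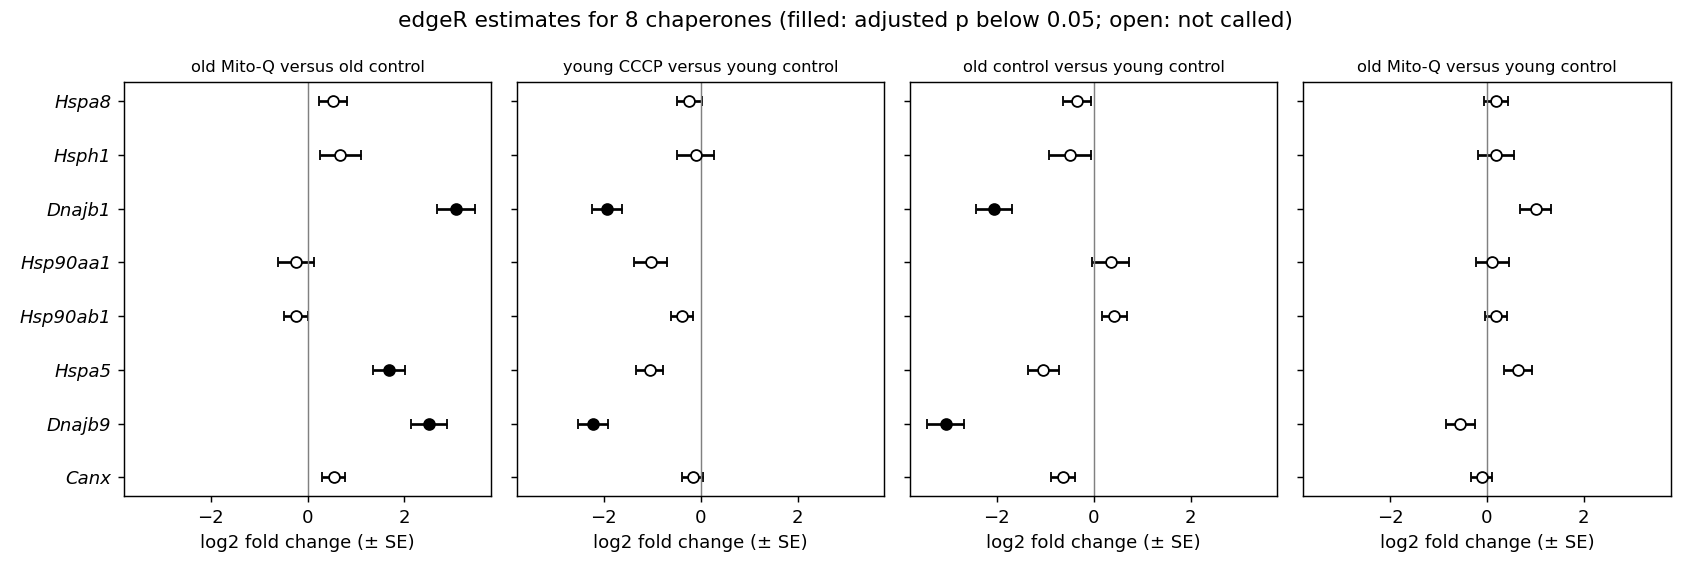
Log2 fold changes of 8 chaperone genes in the 4 comparisons from edgeR (horizontal axis), with bars of 1 SE on each side and filled points for an adjusted p under 0.05. Dnajb1, Dnajb9 and Hspa5 lie between 1.68 and 3.06 in old Mito-Q versus old control and below -1 under CCCP and in old control versus young control, while Hspa8, Hsph1 and Hsp90ab1 lie between -0.49 and 0.68 in all 4 panels.

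More members had libraries that did not overlap between groups than were called. In old Mito-Q, 4 of 10 members had every library above every old control library, against 3.87% of all genes. Under CCCP 6 of 10 had every library below every control, against 2.89% of all genes. Of the 6, 1 was Hspa1a, where the highest CCCP library and the lowest control library both held 4 reads. In old control 4 of 10 members were below every young control library, against 6.5%. Between old Mito-Q and young control 1 was above (1.65% of all genes) and 1 below (1.36%). The median log2 fold change of the 10 members was 0.53 in old Mito-Q versus old control, where the median of all genes was -0.12. It was -0.97 under CCCP (all genes 0.21), -0.56 in old control versus young control (all genes 0.16) and 0.19 in old Mito-Q versus young control (all genes 0.01). Each of these medians includes Hspa1a and Hspa1b, whose fitted values rest on few reads. The median of all genes turned sign without old control 1, to 0.31 in old Mito-Q versus old control and to -0.35 in old control versus young control. It also turned with every library kept. With the share of reads not counted to a gene as covariate it was 0.12 and -0.12 in these comparisons, and by limma-voom 0.07 and -0.22.

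Hspa8 (ENSMUSG00000015656, chr9:40800984-40810087, plus strand), the constitutive cytosolic Hsp70, was called in no comparison. It had 1462, 1966, 1901, 1419 and 1082 CPM in old Mito-Q libraries, against 959, 1312 and 984 CPM in old control libraries, and the ranges overlapped. The log2 fold change was 0.53 (interval of 1.96 SE from -0.02 to 1.08, edgeR adjusted p = 0.549), so a rise of up to about 2-fold lies within it. Young CCCP libraries lay between 872 and 1560 CPM and young control libraries between 947 and 1747 CPM. Under CCCP Hspa8 had a log2 fold change of -0.23 (-0.73 to 0.27, edgeR adjusted p = 0.805) and in old control versus young control of -0.34 (-0.91 to 0.24, edgeR adjusted p = 0.688).
The levels of Hspa5 and Dnajb1 were also read relative to Hspa8 within each library. The ratio of Hspa5 to Hspa8, in RPKM, was 0.833 to 1.44 in old Mito-Q and 0.483 to 0.551 in old control libraries, and 0.413 to 0.559 in young CCCP and 0.722 to 0.975 in young control libraries. For Dnajb1 to Hspa8 it was 0.649 to 1.19 in old Mito-Q and 0.140 to 0.165 in old control, and 0.124 to 0.221 in young CCCP and 0.352 to 0.570 in young control. Neither ratio overlapped within those pairs of groups. Of the 50-base stretches of Hspa8 transcripts, 39.4% occur in other genes, mostly the pseudogene Gm15459, and reads that align to several places are not in the gene counts, so its level may be too low.

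Hsp90aa1 (ENSMUSG00000021270, chr12:110690605-110702728, minus strand) and Hsp90ab1 (ENSMUSG00000023944, chr17:45567775-45573271, minus strand) had their widest spread in old control libraries (SD 596 and 1022 CPM). Hsp90aa1 had 715, 1040, 1641, 771 and 532 CPM in old Mito-Q, against 501, 1125 and 1692 CPM in old control libraries. It had 375, 400, 419, 489 and 446 CPM in young CCCP, against 573, 774, 1460 and 662 CPM in young control libraries. Old Mito-Q 3, old control 3 and young control 3 were the high libraries of their groups, while the 5 CCCP libraries lay close together and below every young control. The log2 fold change under CCCP was -1.03 (SE 0.34, edgeR adjusted p = 0.259), not called, and in old Mito-Q versus old control it was -0.23 (SE 0.37, edgeR adjusted p = 0.912).
In old control versus young control, the log2 fold change was 0.35 (SE 0.39, edgeR adjusted p = 0.769) for Hsp90aa1 and 0.42 (SE 0.26, edgeR adjusted p = 0.498) for Hsp90ab1. Both were called higher in old control without the 3 libraries that stood apart (1.10 and 0.67, edgeR adjusted p = 0.026 and 0.0495) and by limma-voom (0.79 and 0.45, adjusted p = 0.0295 and 0.0323). Hsp90aa1 was also called lower under CCCP with no filter on low counts (-1.03, edgeR adjusted p = 0.0308).
Hsp90ab1 averaged 2260 ± 289 CPM in old Mito-Q, 2666 ± 1022 in old control, 1515 ± 172 in young CCCP and 1986 ± 95.3 in young control. Its 5 CCCP libraries, between 1279 and 1755 CPM, were again below all young controls, between 1875 and 2068 CPM, a small gap that was not called (log2 fold change -0.39, SE 0.23, edgeR adjusted p = 0.564). Old control 3, at 3772 CPM, was the highest of the 17 libraries, and without it the log2 fold change in old Mito-Q versus old control was 0.12 in place of -0.24. Per kilobase of exon, Hsp90aa1 stood at 0.203 to 0.232 of Hsp90ab1 under CCCP and at 0.233 to 0.575 in young control, ranges that almost touch. It stood at 0.218 to 0.347 in old control and 0.222 to 0.586 in old Mito-Q, and these ranges overlapped. The 2 genes differ in how well reads can be placed, since 47.5% of 50-base stretches of Hsp90aa1 and 3.44% of those of Hsp90ab1 occur in other genes.

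Canx (ENSMUSG00000020368, chr11:50293961-50325673, minus strand), the ER membrane lectin, had a narrow spread and lower values in old control than in any other group. It had 541, 586, 561, 496 and 498 CPM in old Mito-Q, against 394, 325 and 387 CPM in old control libraries. In young CCCP it had 449, 613, 411, 537 and 555 CPM, against 617, 511, 565 and 608 CPM in young control libraries. Old control lay below all old Mito-Q and all young control libraries, but neither difference passed the test, with log2 fold changes of 0.54 (SE 0.24, edgeR adjusted p = 0.442) in old Mito-Q versus old control and -0.64 (SE 0.25, edgeR adjusted p = 0.231) in old control versus young control. Canx was called in old control versus young control by DESeq2 (adjusted p = 0.0194) and by limma-voom (adjusted p = 0.00232). In old Mito-Q versus old control it was called by limma-voom (adjusted p = 0.0208). Both methods called more genes than edgeR in every comparison. The CCCP and young control ranges overlapped (-0.17, edgeR adjusted p = 0.843).
Hsph1 (ENSMUSG00000029657, chr5:149614287-149636376, minus strand), an Hsp110 nucleotide exchange factor that HSF1 induces, was low and scattered. Its group means were 89.6 ± 34.8 CPM in old Mito-Q, 55.9 ± 11.7 in old control, 73.0 ± 35.4 in young CCCP and 78.5 ± 18.6 in young control, and all groups overlapped, with single libraries between 24.7 CPM (young CCCP 3) and 135 CPM (old Mito-Q 3). Log2 fold changes were 0.68 (SE 0.42) in old Mito-Q versus old control, -0.10 (SE 0.38) under CCCP and -0.49 (SE 0.43) in old control versus young control, with edgeR adjusted p between 0.632 and 0.958.

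Hspa1a (ENSMUSG00000091971, chr17:34969190-34972156, minus strand) and Hspa1b (ENSMUSG00000090877, chr17:34956436-34959238, minus strand), the neighbouring stress-induced Hsp70 genes, were barely detected. Hspa1a gave 31 reads in all old Mito-Q libraries together, 20 in old control, 6 in young CCCP and 91 in young control, of which 63 were in young control 3. Hspa1b gave 78 reads in old Mito-Q, 44 in old control, 39 in young CCCP and 39 in young control. Of the 17 libraries, those over the floor of 3 reads were, for Hspa1a, 2 of 5 in old Mito-Q, 1 of 3 in old control, 1 of 5 in young CCCP and 4 of 4 in young control. Both genes together were not called in any comparison (edgeR adjusted p between 0.543 and 0.995). Of their 50-base stretches, 66.3% of Hspa1a and 62.3% of Hspa1b occur in other genes, chiefly each other, and reads that fit both may have been left out of the counts. An antisense gene, Gm20481, also overlaps 564 bases of the Hspa1a exon, and without a stated strand setting their reads cannot be told apart. Differences between groups in these genes were not detectable at this depth.

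Other chaperone genes were read from 10 lists with 146 symbols, of which 141 genes were tested. They covered heat shock factors, other Hsp70 and J proteins, co-chaperones, small heat shock proteins, the CCT chaperonin with prefoldin, ER chaperones, ER oxidoreductases, ER-associated degradation and the ER stress sensors and factors. Of the 10 list genes with most reads, Cct5 (239 RPKM), a subunit of the CCT ring that folds actin and tubulin, Calr (212), the soluble counterpart of calnexin, and Pdia3 (197), a disulphide isomerase, stood highest. The other 7, Cct8, P4hb, Pdia6, Cct6a, Cct4, Cct7 and Cct3, had between 80.6 and 180 RPKM.
In old Mito-Q versus old control, 2 of the 141 were called higher (1.42%, against 0.526% of all genes) and none lower. Ppp1r15a (ENSMUSG00000040435, chr7:45522916-45526268), or GADD34, which restores translation by directing dephosphorylation of eIF2alpha, averaged 712 ± 159 CPM in old Mito-Q and 58.9 ± 15.3 CPM in old control (log2 fold change 3.60, SE 0.33, edgeR adjusted p = 1.83e-07). Hspa4 (ENSMUSG00000020361, chr11:53259814-53300457), a further Hsp110 exchange factor, averaged 450 ± 119 CPM in old Mito-Q and 128 ± 14.9 CPM in old control (1.81, SE 0.33, edgeR adjusted p = 0.00331). Leaving out old control 1 made the count 4, leaving out old control 3 made it 1, and without the 3 libraries that stood apart 16 were called, 6 higher and 10 lower. In that last setting 1135 of 25734 genes were called in all, 490 higher and 645 lower. Over all genes, 142 of 26937 were called without old control 1 and 81 of 28696 without old control 3.
Under CCCP 3 of the 141 were called lower (2.13%, against 0.652% of all genes) and none higher. These were Ppp1r15a at 46.1 ± 4.15 CPM under CCCP and 433 ± 114 CPM in young control, Hspa4 at 150.5 ± 49.5 CPM under CCCP and 428 ± 83.4 CPM in young control, and Atf4, the transcription factor of the integrated stress response, at 73.1 ± 15.9 CPM under CCCP and 215 ± 62.2 CPM in young control. Their log2 fold changes were -3.23, -1.51 and -1.56, with edgeR adjusted p = 1.93e-08, 0.00341 and 0.00331. All 14 CCT and prefoldin genes had negative log2 fold changes under CCCP, with a median of -0.53, and none was called. The list of 23 other ER chaperones and co-chaperones had 16 negative log2 fold changes in old Mito-Q versus old control (median -0.29, all genes -0.12). It had 17 positive ones in old control versus young control (median 0.60, all genes 0.16). Most signs were opposite to those of Hspa5 and Dnajb9, but in the main test the medians of all genes leaned the same way as the list. None of the 23 was called in old Mito-Q versus old control, and 1 was called higher and 1 lower in old control versus young control. Of all 24523 genes, 133 were called in the first of these comparisons and 415 in the second. Under CCCP the list was split, with 12 positive and 11 negative. Cct2 had the smallest p among the CCT and prefoldin genes, at 170 ± 16.8 CPM under CCCP and 297 ± 24.4 CPM in young control (-0.80, SE 0.23, edgeR adjusted p = 0.159).

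In old control versus young control, 4 of the 141 were called lower and 1 higher (3.55%, against 1.69% of all genes called either way). Ppp1r15a (-2.88) and Hspa4 (-1.74) fell, as did Hspa13, a microsomal Hsp70 (-2.03, edgeR adjusted p = 0.0176), and Ppp1r15b, the constitutive counterpart of Ppp1r15a (-1.94, edgeR adjusted p = 0.0372). Cnpy2, a resident ER protein, rose to 305 ± 161 CPM in old control, against 104 ± 5.2 CPM in young control (1.55, SE 0.32, edgeR adjusted p = 0.00804). Its old control libraries had 144, 306 and 465 CPM, all above the highest young control at 111 CPM. Leaving out old control 1 made this count 8, old control 2 made it 2 and old control 3 made it 1, and without the 3 libraries that stood apart 29 were called, 16 higher and 13 lower. In that last setting 2520 of 25734 genes were called in all, 1413 higher and 1107 lower. Over all genes, 684 of 26937 were called without old control 1, 125 of 28770 without old control 2 and 140 of 28696 without old control 3. Between old Mito-Q and young control none of the 141 was called by edgeR or by DESeq2, 1 was called by limma-voom, and 3 had an unadjusted p under 0.05 in edgeR. Few genes of any kind were called there, 35 of 24523 by edgeR, 181 of 24040 by DESeq2 and 190 of 24523 by limma-voom. In edgeR 1935 of all genes had an unadjusted p under 0.05. Hsf1, Hsp90b1, Xbp1, Ddit3 and Herpud1, as Cct2 above, were picked for a known role or a low p after their values were seen. Hsf1, the main heat shock factor, was not called in any comparison, with 106 ± 12.9 CPM in old Mito-Q and 74.0 ± 28.7 in old control, and 94.5 ± 46.0 in young CCCP and 142 ± 72.6 in young control. Hsp90b1, the Hsp90 of the ER, averaged 228 ± 37.2 CPM in old Mito-Q and 323 ± 159 in old control, and 228 ± 46.4 in young CCCP and 235 ± 36.5 in young control, and was not called either. Xbp1 and Ddit3, 2 transcription factors of the unfolded protein response, likewise passed in no comparison. Herpud1, a target of the unfolded protein response, averaged 239 ± 51.8 CPM in old Mito-Q and 136 ± 51.7 in old control (0.81, SE 0.37, edgeR adjusted p = 0.456), and 132 ± 51.4 in young CCCP and 246 ± 76.2 in young control (-0.90, SE 0.33, edgeR adjusted p = 0.31).

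**Figure D3:**
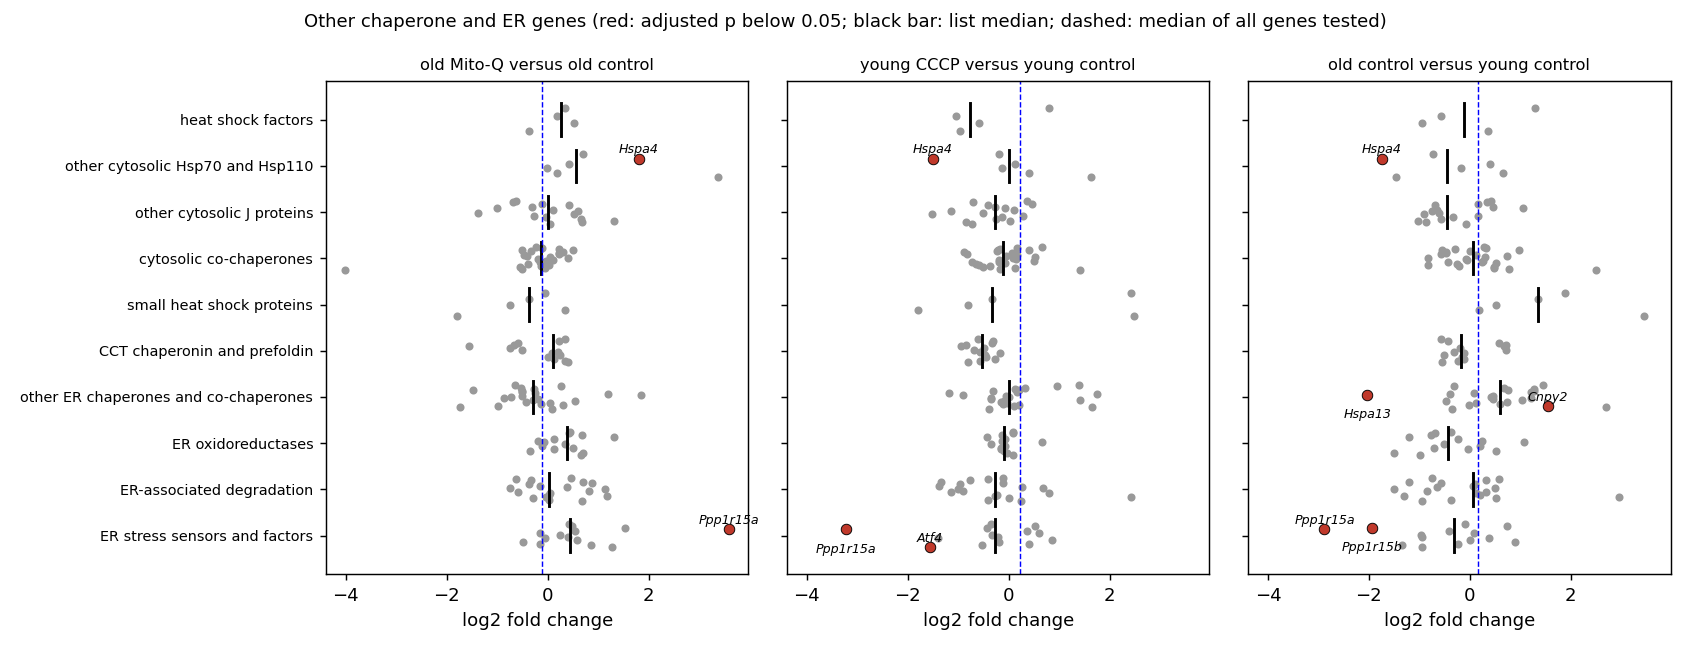
Log2 fold changes of the 141 tested genes of 10 other chaperone lists, with a panel for each of 3 comparisons and a row for each list. Red points are called genes, black bars list medians and dashed lines the median of all genes tested. Ppp1r15a is the outermost called gene in each panel, at 3.60 in old Mito-Q versus old control, -3.23 under CCCP and -2.88 in old control versus young control.

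Across the 17 libraries, the level of Dnajb1 was most like that of Dusp1, a phosphatase that switches off MAP kinases (Pearson's r of log2 CPM 0.96, Spearman's rho 0.89), of Hspa5 (r 0.95, rho 0.95) and of Zfp36, which destabilises mRNAs (r 0.94, rho 0.89). Hspa5 was most like Dnajb1, Btg2, an antiproliferative factor (r 0.91, rho 0.92), and Isca1, an iron-sulphur cluster assembly protein (r 0.91, rho 0.88). Dnajb9 was most like Skil, a SMAD co-repressor (r 0.93, rho 0.86), Zc3h12a, an endoribonuclease (r 0.93, rho 0.81), and Dusp6 (r 0.93, rho 0.84). These are descriptions over 10571 candidate genes in libraries that share groups and depth. With each group's mean taken out, r was 0.74 between Hspa5 and Dnajb1, 0.87 between Hspa5 and Hspa8 and -0.13 between Dnajb1 and Dnajb9.
Dusp1, Zfp36 and Btg2 are genes that stimulation switches on within minutes, and a list of 24 such immediate early genes moved with the 3 chaperones. Its summed level was 18890 to 32460 CPM in old Mito-Q and 1559 to 2508 CPM in old control libraries, and 639 to 1520 CPM in young CCCP and 9788 to 17440 CPM in young control libraries. In old Mito-Q versus old control 18 of the 24 were called higher (0.526% of all genes), and under CCCP 20 were called lower (0.652%). In old control versus young control 18 were called lower (1.17%), and between old Mito-Q and young control none was called (0.143% either way). Young control 3, the lowest young control for Dnajb1, was also the lowest for this sum, but it was the highest for Dnajb9. Old Mito-Q 3, with the lowest sum of its group, likewise had the highest Dnajb9 of its group (89.7 CPM). The order and duration of handling are not given in the sources used here, and the part of the immediate early change in the chaperone result was not tested.

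**Figure D4:**
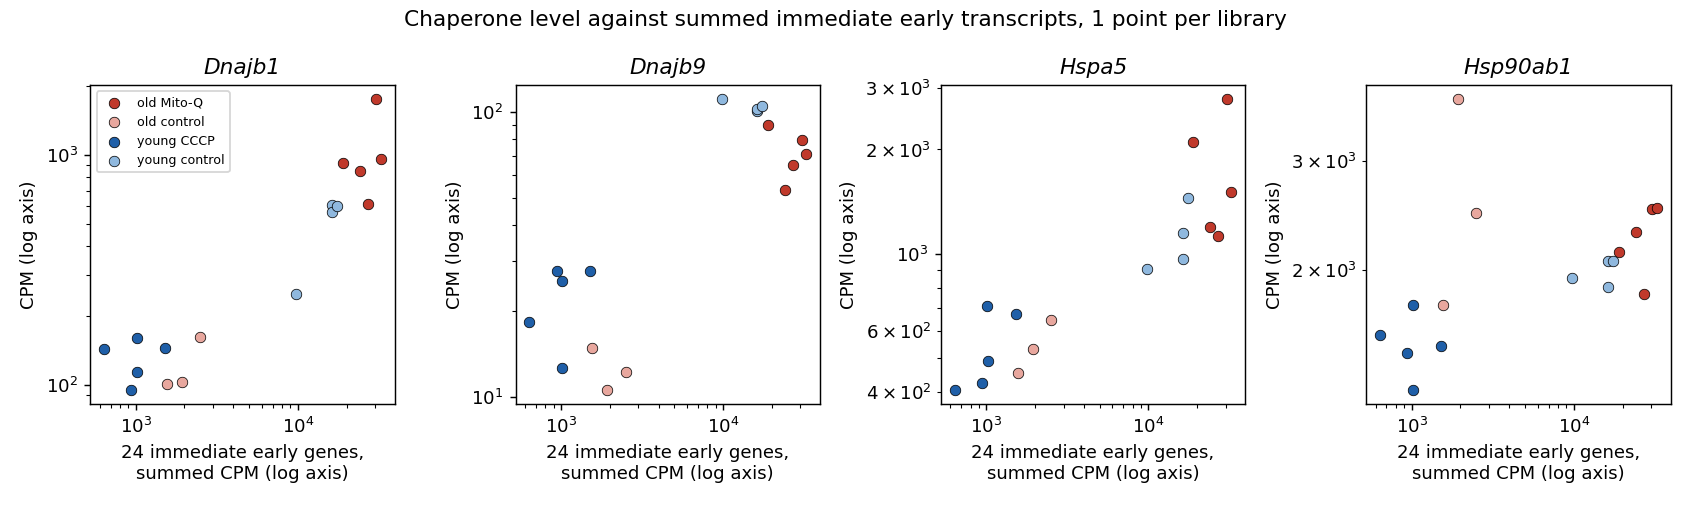
Dnajb1, Dnajb9, Hspa5 and Hsp90ab1 (CPM, log axis) against the summed CPM of 24 immediate early genes (log axis), one point per library. Old Mito-Q and young control libraries lie at sums of 9788 CPM and more, and old control and young CCCP libraries at 2508 CPM and less, with no library between. Dnajb1, Dnajb9 and Hspa5 separate the same 2 pairs of groups, and Hsp90ab1, at its highest in old control 3 (3772 CPM), does not.

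Transcripts of neutrophils and their precursors also varied between libraries. The summed level of 15 such genes was 992 to 14430 CPM in old Mito-Q and 1104 to 2402 CPM in old control, and 777 to 16630 CPM in young CCCP and 447 to 2235 CPM in young control. None of the 15 was at or under 3 reads in every library of a group. Of these genes 1 was called higher under CCCP, where 16 of all 24523 genes were, and none in old Mito-Q versus old control. In old control versus young control 1 was called higher (128 of all genes), and in old Mito-Q versus young control 1 (32 of all genes). The median log2 fold change of the 15 was 2.40 in old Mito-Q versus old control and 3.46 under CCCP, and their part in the chaperone results was not tested.
Without young CCCP 3, young control 3 and old control 1, the log2 fold changes were 2.92 for Dnajb1, 2.62 for Dnajb9 and 1.53 for Hspa5 in old Mito-Q versus old control, all called by edgeR. They were -2.19 for Dnajb1 and -2.12 for Dnajb9 under CCCP, and -2.14 and -3.14 in old control versus young control, again all called.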

How the data were processed

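RNA of sorted HSCs was sequenced in bulk from 17 libraries in 4 groups. Per the submitters' processing notes, reads were trimmed with Trim Galore and aligned with STAR 2.7 to GRCm38. What the authors deposited are raw read counts, 1 value per Ensembl gene and library. How reads were counted, the annotation release, use of strand and read length are not given in the sources used here. Each deposited file held 54838 genes and 5 entries for reads not counted to a gene, ambiguous reads among them. These entries were kept out of library sizes and tests and made up 37.7% to 76.2% of a library. Ambiguous reads made up 4.01% to 13.4%. GENCODE M21, of the same build, named 54809 of the gene IDs, and 1 symbol of the gene lists had no match.

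One edgeR 4.0.16 fit under R 4.3.3 took in every library, with filterByExpr by group at a minimum count of 10, TMM scaling, robust quasi-likelihood dispersions in their earlier form and no covariate. Two-sided tests over 24523 genes were adjusted by Benjamini-Hochberg, and genes under 0.05 were called. CPM carry TMM factors, RPKM divide them by union exon length, and SE is the absolute log2 fold change over the square root of F. The floor of 3 reads equals 0.298 to 0.653 CPM and, like other counting limits, covers counting error only, since PCR reads are not independent molecules. No 2 libraries of a group agreed within sampling noise (lowest chi-square per degree of freedom 20.9). The procedure was tested on simulated data.

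The members, lists and comparisons were chosen with earlier results of these data known. Named genes were all 10 members, up to 10 called genes in each direction and the 10 of highest mean CPM in the other lists, and the 3 genes most like each called member (average log2 CPM above 2, prior count 2). Alternatives were other scalings, filters, dispersions and covariates, a replicate block, fewer libraries, limma 3.58.1 (voom) and DESeq2 1.42.0.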

Additional observations from a re-analysis of the deposited data

Results flagged for a closer look

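In young control, 1 library stood far from the other 3 for 2 members. Dnajb1 was lowest in young control 3, at 248.5 CPM, where the nearest library had 567 CPM. Without it, the log2 fold change of Dnajb1 was -2.19 in young CCCP versus young control, -2.28 in old control versus young control and 0.78 in old Mito-Q versus young control, and in edgeR the first 2 were still called. Hspa1a was highest in the same library, at 13.71 CPM, where the nearest had 2.23 CPM, and it was called in no comparison. At most 30 groups of values were looked at in this way, and chance marks about 1 in 20. Young control 3 also had the lowest gene total and the lowest immediate early sum of its group, and the part of either in these values was not tested.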

How the results depend on the processing

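Dnajb1 and Dnajb9 were called in the same direction under every alternative of the first 3 comparisons (21, 22 and 20 settings), and Hspa5 in old Mito-Q versus old control in 19 of 21. Hspa5 under CCCP was called in 4 of 22. The count of members called under CCCP, 2, was 4 with no filter on low counts. In old control versus young control it was 4 without young CCCP 3, young control 3 and old control 1 (2 higher, 2 lower), 6 by limma-voom (2 higher, 4 lower) and 4 by DESeq2 (all lower), in place of 2, both lower. The count in the other lists, 2 in old Mito-Q versus old control, was 4 with newer dispersions (chosen after seeing the data). It was 4 with the share of reads not counted to a gene as covariate and 16 without the 3 libraries. By limma-voom it was 14, by DESeq2 6, and with 1 library left out 1 to 4. Under CCCP, 3, it was 5 with no filter, 9 by limma-voom and 9 by DESeq2. In old control versus young control, 5, it was 29 without the 3 libraries, 2 with only the compared groups, 34 by limma-voom and 8 by DESeq2, and 1 to 8 with 1 library left out. In old Mito-Q versus young control, 0, it was 1 by limma-voom. Over all genes these methods also called more. Limma-voom called 1210, 364, 3278 and 190 of 24523 genes in the 4 comparisons, and DESeq2 442, 556, 1260 and 181 of 24040. The main test called 133, 176, 415 and 35. With no filter, 324 of 48965 genes were called under CCCP. With 1 library left out, 79 to 142 genes were called in old Mito-Q versus old control and 125 to 684 in old control versus young control. Signs turned only for values that the main edgeR test did not call. Hsph1 under CCCP was 0.12 with library totals, 0.0519 with the replicate block, 0.28 without the 3 libraries and 0.14 by limma-voom, and ran from -0.253 to 0.118 with 1 library left out. Over the libraries left out in turn, Hsp90aa1 ran from -0.652 to 0.216 and Hsp90ab1 from -0.528 to 0.119, lowest when old control 1 and highest when old control 3 was dropped, in old Mito-Q versus old control. Hsp90aa1 ran from -0.0908 (without old control 3) to 0.759 in old control versus young control and from -0.174 (without old Mito-Q 3) to 0.485 in old Mito-Q versus young control, where Hsph1 ran from -0.00104 (without old Mito-Q 3) to 0.371. The cause was not tested.

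Same-numbered libraries deviated together at most weakly (22 pairs, r from -0.11 to 0.292, median 0.0318, 5 above 0.1). For 85 pairs with different numbers, r ran from -0.272 to 0.203 (median 0.00389, 6 above 0.1). With so few libraries per group, these values cannot decide whether the numbers pair the samples. With the replicate block, 3, 2, 2 and 0 members were called in the 4 comparisons, as without it. Scaling moved the median of all genes by over 0.1, to -0.25 with upper-quartile factors in old Mito-Q versus old control (main -0.12), to 0.33 with library totals under CCCP (main 0.21) and to 0.28 with upper-quartile factors in old control versus young control (main 0.16), where 190 genes were then called higher and 237 lower, in place of 128 and 287.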
